A study of Mus musculus with 4 samples.

Results

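Among the dense clusters of CCGG positions on the mouse autosomes, 108 were rarely cut by HpaII, an enzyme that cuts CCGG only when its central CG is unmethylated. Clusters were built from positions with at least 10 CCGG within 500 bp on either side, the position included, joined where gaps were at most 500 bp. Of 9856 such clusters, 9433 lay on autosomes and 6602 of these held at least 20 tags of MspI, which cuts CCGG whether or not the CG is methylated. The 108 members were those with a HpaII/MspI ratio under 0.5. This ratio is the summed HpaII tags of both cell fractions over the summed MspI tags, each library scaled to its total, so that 1 is the average of the libraries. The members were chosen by these values, and their low cutting is therefore a description and not a finding. That they are methylated rests on this ratio alone, with no other measure of methylation used here. They held 1445 of the 130174 dense positions.

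The tags came from HELP tagging of MC1-ZE7, a line of embryonic stem cells from mouse (strain 129S6/SvEvTac, passage 31) in which the promoter of Zscan4c drives the fluorescent protein Emerald. Cells were grown without feeders in serum with leukemia inhibitory factor and were sorted into an Emerald-high and an Emerald-negative fraction, so both fractions carry the reporter. Each fraction gave 1 HpaII and 1 MspI library, with totals of 5662614 and 9535691 HpaII tags (Emerald-high and Emerald-negative, the order used for paired values from here on) and of 9372711 and 9307616 MspI tags. No difference below has a replicate check, because each fraction and enzyme has 1 library. Intervals (95%, Poisson for ratios and exact for shares) therefore cover counting error only. Tags also carry no molecular identifiers.

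CpG islands are stretches in which CG dinucleotides escaped the loss that methylation causes over evolution. Most lie at gene promoters and stay unmethylated, which makes them rich in sites that HpaII can cut. Methylated CG-dense DNA is the exception in embryonic stem cells and is known from imprinted regions, germline gene promoters, transposable elements and tandem repeats. Zscan4 genes are known from the 2-cell embryo, and cultured embryonic stem cells switch them on only now and then.

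The label of CpG-island-like DNA fitted the members by CCGG density, while promoters rich in CCGG were almost never found in them. RefSeq promoter sequences (300 bases around a gene's start, GRCm38.p6) were placed on the mm9 map of CCGG positions by the distances between their own CCGG. Only 4373 of 32851 promoters had the 4 CCGG needed, so a cluster without a matched promoter may still hold one with fewer CCGG. Of these 4373, 4327 (98.9%) matched a single place on their chromosome, and 3 (0.0686%) also matched a randomly drawn other chromosome. A matched promoter lay in 1 of 104 rarely cut clusters (0.962%, 95% interval 0.0243 to 5.24) on the chromosomes that the promoter table covers. It lay in 2481 of 6191 highly cut clusters (40.1%, 38.9 to 41.3), those with a ratio of at least 2, and in 0 of 111 partly cut clusters, those from 0.5 to under 2, which allows up to 3.27%. The intervals of the rarely and highly cut clusters lie far apart.

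The single rarely cut promoter belonged to Gm16254, a gene without a known role. It is printed here, with CCGG in capitals, as an example of a short unit repeated in tandem. It does not stand for all members. The ratio of its cluster was 0.443, near the limit of 0.5, and that of the Emerald-high fraction alone was 0.533. For contrast, the line after it gives the promoter of 9030612E09Rik, from the highly cut cluster with a matched promoter and most MspI tags on the same chromosome. Both sequences are from RefSeq's GRCm38.p6, chr10:7608626-7608925 on the minus strand and chr10:43174449-43174748 on the plus strand.
Gm16254: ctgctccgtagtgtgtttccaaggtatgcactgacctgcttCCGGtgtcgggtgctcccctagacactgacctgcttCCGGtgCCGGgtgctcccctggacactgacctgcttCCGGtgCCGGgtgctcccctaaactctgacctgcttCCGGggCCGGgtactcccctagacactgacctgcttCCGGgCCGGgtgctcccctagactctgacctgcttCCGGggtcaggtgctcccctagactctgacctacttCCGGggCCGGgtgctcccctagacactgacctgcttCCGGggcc
9030612E09Rik: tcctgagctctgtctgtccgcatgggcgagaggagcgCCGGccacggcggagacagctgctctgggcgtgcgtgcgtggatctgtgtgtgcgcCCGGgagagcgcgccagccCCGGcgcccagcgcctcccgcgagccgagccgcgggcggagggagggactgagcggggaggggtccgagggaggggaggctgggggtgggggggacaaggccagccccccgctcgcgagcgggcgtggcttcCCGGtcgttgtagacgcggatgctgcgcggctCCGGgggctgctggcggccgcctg
The longest word found at least 5 times without overlap in the Gm16254 promoter was CACTGACCTGCTTCCGG, 17 bases that occurred 5 times and on either strand in only 1 of the 32851 promoters. No word of 8 or more bases occurred 5 times in the other promoter. The Gm16254 promoter held 13 CCGG and the other held 5, in 300 bases each. In mm9 the Gm16254 cluster spans chromosome 10 at 7328423 to 7328815, with 15 dense positions. It held 50 and 45.5 HpaII tags beside 155.2 and 131.8 MspI tags, and 69.7% of its tags lay at positions with tags shared among places. The contrasting cluster, on chromosome 10 at 42893034 to 42894807, held 339 and 730 HpaII tags and 133 MspI tags in each fraction.

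Regular spacing was common among the rarely cut clusters. For each cluster, all CCGG from 500 bp before to 500 bp after it were used, and the share of spacings equal, within 1 bp, to the spacing 1 to 6 places further on was taken at its best offset. This share reached 50% in 45 of 108 rarely cut clusters (41.7%, 32.3 to 51.5), in 37 of 112 partly cut clusters (33.04%, 24.4 to 42.6) and in 33 of 6382 highly cut clusters (0.517%, 0.356 to 0.725). Rarely and partly cut clusters had overlapping intervals, and both stood apart from the highly cut ones. The median share was 0.375 in rarely cut and 0.0909 in highly cut clusters. In the 45 regular clusters the commonest spacing ran from 5 to 56 bp with a median of 29 bp, and was 5 bp in 3 and 6 bp in 7 of them. It is the length of the repeated unit only where each spacing equals the next, which was the best offset in 20 of the 45. A cut at 33% of spacings, chosen after seeing the data, gave 61 rarely cut clusters (56.5%) and 83 highly cut clusters (1.30%).

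**Figure D1:**
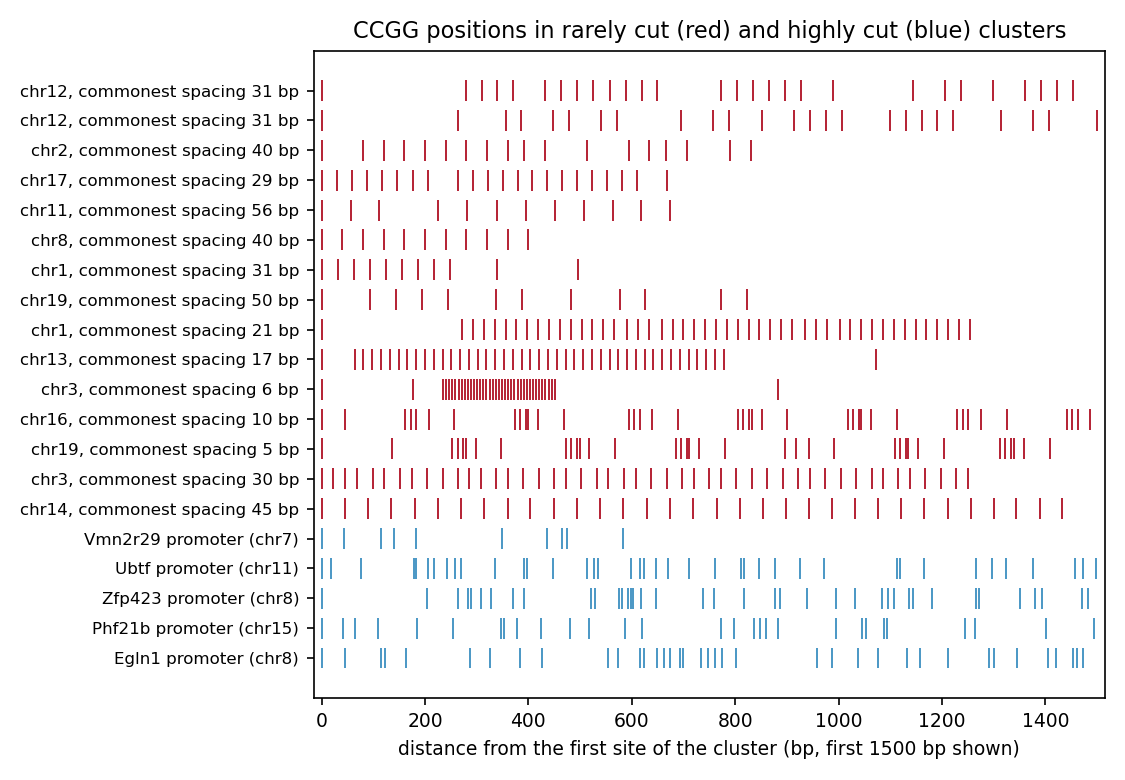
CCGG positions (ticks) along rarely cut clusters (red: those with most MspI tags, most positions or largest span) and along the 5 highly cut clusters with a matched promoter and most MspI tags (blue), as distance in bp from the first position. Most red rows show evenly spaced ticks, as in the chromosome 12 cluster with 65 spacings of 31 bp, while the ticks of the blue rows are less regular. The first 1500 bp are drawn.

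A smaller group repeated a spacing pattern found elsewhere in the genome. In 9 further rarely cut clusters (8.33%, 3.88 to 15.2), the median series of 3 neighbouring spacings occurred in at least 5 other places. The same held for 37 highly cut clusters (0.580%, 0.409 to 0.798) and for 23 of 112 partly cut ones (20.5%, 13.5 to 29.2). The pattern was thus not particular to the rarely cut clusters, and its share was highest in the partly cut ones. The commonest such series, 10, 11 and 5 bp, was found in 3 rarely cut clusters outside the regular group and 1312 times over the map. It continued with 19, 50 and 117 bp, 212 bp in all. Of the other 54 members, some missed the limit of 50% by little, such as the member with most positions. No repeat annotation was used here, so the elements are not named.

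Tags shared among positions were frequent in the members, as can be measured from tags deposited as fractions. Positions with such fractions held 63.8% of the members' tags and 2.64% of the highly cut clusters' tags. Over 20% of tags were shared in 58 of 108 rarely cut clusters (53.7%), in 22 of 112 partly cut ones (19.6%) and in 240 of 6382 highly cut ones (3.76%). Among the 50 members at or below 20% shared tags, 13 were regular (26.0%), against 24 highly cut clusters under the same limit (0.391%). The higher frequency of regular spacing therefore held for clusters with few shared tags.

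Rarely cut clusters were smaller than highly cut ones at the lower end. They had a median of 10 dense positions (quartiles 4 and 17.25) and a median span of 463.5 bp (233 and 680.3). Highly cut clusters had a median of 12 positions (9 and 17) and 634 bp (470.0 and 871). Under 10 positions were found in 40.7% (31.4 to 50.6) of rarely cut and 25.7% (24.6 to 26.8) of highly cut clusters. Partly cut clusters, at 33.9% (25.3 to 43.5), overlapped with the rarely cut ones. MspI tags reached 15.0 per position in rarely cut and 7.12 in highly cut clusters, a value to which the rule contributes. A median of 5 positions per rarely cut cluster had any MspI tag. The single most tagged position held a median of 39.7% of the MspI tags, against 24.7% in highly cut clusters. In partly cut clusters these medians were 3 positions and 54.9%. The levels thus rest on few positions in many members.

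Rarely cut clusters were found on all 19 autosomes. Chromosome 8 held the most, 13 of its 381 tested clusters (3.41%), followed in share by chromosome 12 with 9 of 295 (3.05%). Chromosome 11 had the lowest share, 4 of 585 (0.684%). Distances to promoters cover only the 4327 of 32851 promoters that were placed, and were taken for the members alone. Nearer promoters with fewer CCGG may go unseen. The nearest matched promoter was a median of 247877 bp away over 104 members (quartiles 89453 and 573892), and 8 members had one within 10000 bp. Beside that of Gm16254, these included Slc35c2 at 4625 bp, Fgd5 (an activator of the small GTPase Cdc42) at 9588 bp, Macroh2a2 (a histone H2A variant) at 7301 bp and Ski (a transcriptional co-repressor) at 9874 bp. The clusters near Slc35c2, Fgd5 and Macroh2a2 held 1 or 2 HpaII tags in each fraction, beside 26 to 58 MspI tags per library, with all tags of the one near Slc35c2 shared.

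**Figure D2:**
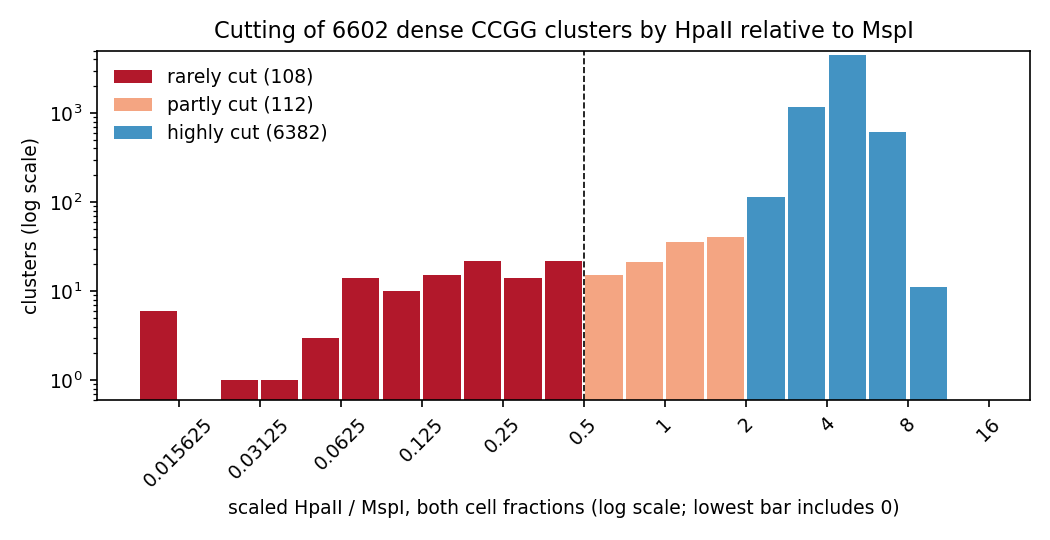
Number of autosomal dense clusters (log scale) by scaled HpaII/MspI ratio of both fractions together (log scale, 108 rarely, 112 partly and 6382 highly cut clusters). The dashed line marks the limit of 0.5. Rarely cut clusters form a long low tail beside the main group, whose median ratio is 4.58.

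As a description of what the rule selected, the median ratio of the 108 members was 0.184 (quartiles 0.0987 and 0.311). Over their summed tags the ratio was 0.179 (0.168 to 0.189) for the Emerald-high and 0.110 (0.103 to 0.117) for the Emerald-negative fraction. Autosomal isolated positions, which have no other CCGG within 500 bp, stood at 0.712 and 0.508, and highly cut clusters at 3.50 and 5.82. The members were cut less than the average isolated position in both fractions, which follows largely from the limit of 0.5 in the rule. At the limit of the ratio, the members just inside were at 0.489, 0.486 and 0.478, on chromosomes 15, 1 and 11. The clusters just outside were at 0.531, 0.540 and 0.553, on chromosomes 4, 1 and 17. At the limit of 20 MspI tags, the last members held 21, 20 and 20 tags, and the nearest clusters of low ratio outside it held 18, 18 and 17.

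The surroundings within 2 kb, which the rule did not use, were rarely cut as well. CCGG outside any dense cluster and within 2 kb of a rarely cut cluster (628 positions at 96 clusters) had a HpaII/MspI ratio of 0.362 for the Emerald-high and 0.281 for the Emerald-negative fraction. The same distance from highly cut clusters (42938 positions at 6303 clusters) gave 2.93 and 3.75, and from partly cut clusters 1.30 and 1.56. From 2 to 10 kb, the ratios were 0.767 and 0.688 beside rarely cut clusters and 1.24 and 1.24 beside highly cut ones. Beside rarely cut clusters, cutting rose with distance from 0.291 within 500 bp to 0.829 at 5 to 10 kb in Emerald-high cells, with a dip at 1 to 2 kb. Beside highly cut ones it fell from 3.50 to 1.18. Intervals of the rarely and highly cut flanks did not overlap in any distance class of either fraction.

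**Figure D3:**
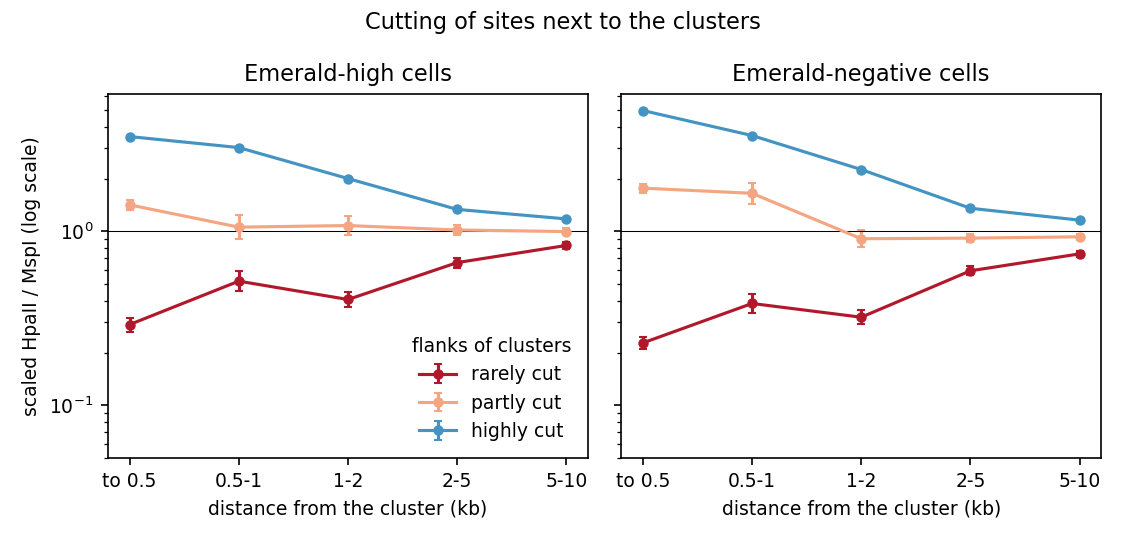
Scaled HpaII/MspI ratio (log scale) of non-dense CCGG by distance in kb from the nearest cluster, in Emerald-high (left) and Emerald-negative cells (right), for flanks of rarely, partly and highly cut clusters. Points are ratios of summed tags, bars are 95% Poisson intervals. Flanks of rarely cut clusters stay under 1 at every distance, as do autosomal isolated positions (0.712 and 0.508, not drawn). Those of highly cut clusters start at 3.50 and 4.94 and fall towards 1.

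Relative to MspI and scaled to library totals, the rarely cut clusters were cut more by HpaII in Emerald-high than in Emerald-negative cells, and the highly cut clusters less. The rule used the sum of the fractions and not their difference. Summed over the 108 members the HpaII tags numbered 1221 and 1174, although the Emerald-high HpaII library was the smaller. MspI gave 11318 and 10426 tags. Scaled to the totals, the log2 difference was 0.81 (0.693 to 0.925) for HpaII and 0.11 (0.0700 to 0.147) for MspI. The log2 difference in HpaII/MspI, Emerald-high minus Emerald-negative, was thus 0.70 (0.579 to 0.822), or 1.63-fold. Highly cut clusters stood at -0.73 (-0.742 to -0.725) and partly cut ones at -0.28 (-0.365 to -0.187). Rarely and highly cut clusters differed by 1.43 (1.31 to 1.56) on the log2 scale. Another scaling moves all classes together. Scaled to dense positions, the members stood at 1.42 and the highly cut clusters at -0.013 (-0.0213 to -0.00483), so the lower cutting of the highly cut clusters nearly vanished. Scaled to isolated positions, the values were 0.22 and -1.22. The distance between rarely and highly cut clusters does not depend on the scaling.

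A large part of this value came from 2 neighbouring clusters on chromosome 12, separated by 2756 bp, which held 33.6% of the members' MspI tags. They held 17.5% of the members' Emerald-high HpaII tags but 6.86% of the Emerald-negative ones. Without them, the difference of the other 106 clusters was 0.45 (0.320 to 0.585). Autosomal isolated positions stood at 0.49 (0.483 to 0.490), so the excess of 0.21 (0.0920 to 0.336) over isolated positions seen with all members rested on this pair. Clusters at or below 20% shared tags (50) gave 0.52 (0.279 to 0.763). With whole tags alone and the members chosen again (84 clusters, 81 of them the same), the value was 0.75 (0.564 to 0.937).

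Single members varied widely around the pooled value. Without a pseudocount, the HpaII/MspI ratio was higher in Emerald-high cells in 69 of 108 rarely cut clusters and lower in 34, and 5 had no HpaII tag in either fraction. The median log2 difference of the 96 members with tags in all 4 libraries was 0.53 (quartiles -0.15 and 1.55). Among all 6602 clusters the ratio was higher in 427 and lower in 6170. A pseudocount of 1 tag gives 77 of 108 above 0 and a median of 0.59, but it sets the HpaII difference of an empty cluster to 0.75, since the HpaII totals differ, and 4 of the 5 empty members then count as above 0. Libraries of MspI differed by a median of 0.13 in the members and 0.25 in all clusters. By chromosome, the members' pooled difference was above 0 on 17 of 19 autosomes, with a median of 0.54. Chromosome 17 stood lowest at -0.60 (-1.28 to 0.0750) and chromosome 4 at -0.34 (-2.06 to 1.39), both with intervals that include 0. Intervals also included 0 on chromosomes 3, 7, 8, 11, 13, 14, 15, 18 and 19, whose values were above 0. Chromosome 7, for example, stood at 0.0021 (-0.797 to 0.801). The highest values were 2.12 (0.654 to 3.59) on chromosome 16 and 1.91 (1.59 to 2.23) on chromosome 12.

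The difference became smaller as clusters were cut more, and with library totals it turned negative. In clusters with a ratio under 0.1 (28), 0.1 to 0.25 (44) and 0.25 to 0.5 (36), the HpaII libraries differed by 1.49, 0.68 and 0.57 (log2). Beyond the limit they differed by 0.27 (0.5 to 1), -0.18 (1 to 2) and -0.48 (2 to 4). Without the chromosome 12 pair, the lowest class fell to 0.79 (0.428 to 1.14), and its interval then overlapped those of 0.68 and 0.57. The pair thus enlarged the decline within the rarely cut clusters. Without it the values still fell in order, but by too little to tell from a flat course at this depth. The further decline beyond the limit did not involve the pair. Where the sign changes depends on the scaling: scaled to dense positions, HpaII differed by 1.95 in the lowest class, 0.28 at ratios of 1 to 2 and -0.010 at 2 to 4, and scaled to isolated positions it was already -0.11 at 0.5 to 1. With library totals, MspI libraries stayed between 0.05 and 0.34 in all classes.

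**Figure D4:**
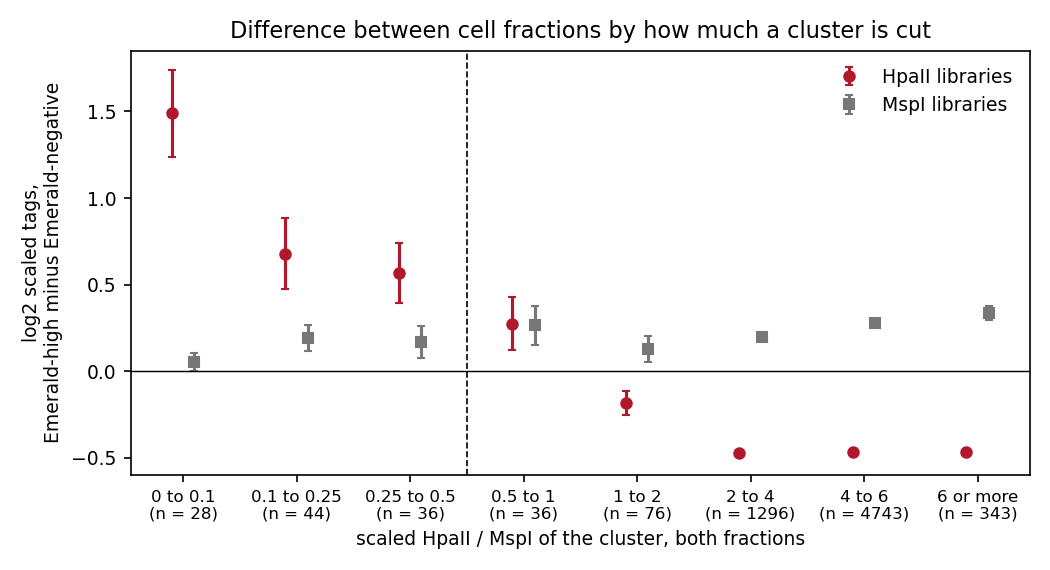
Log2 tags scaled to library totals, Emerald-high minus Emerald-negative, of the HpaII (circles) and MspI libraries (squares) for clusters grouped by their HpaII/MspI ratio, with 95% Poisson intervals and the number of clusters. HpaII falls from 1.49 in the lowest class (0.79 without the chromosome 12 pair) to -0.47 in the highest, and the dashed line marks the limit of 0.5.

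By structure, regular clusters (45) differed by 0.61 (0.424 to 0.791) in HpaII/MspI between the fractions. The 9 clusters with a pattern found elsewhere differed by 0.23 (-0.409 to 0.862), and the other 54 by 0.78 (0.613 to 0.951), a class that includes the chromosome 12 pair. Regular clusters and those with the recurring pattern differed from each other by 0.38 (-0.280 to 1.04), which counting error at this depth cannot tell from 0. At the level of single positions, 334 of the members' 1445 positions, in 72 clusters, had 10 or more tags in both MspI libraries. Their HELP score (0 for no HpaII tag, 50 for equal scaled HpaII and MspI tags) had medians of 7.74 and 3.76, and was higher in Emerald-high cells at 222 and lower at 91. Positions of the same cluster are not independent, so these counts do not show how many members differ. The chromosome 12 pair, with MspI tags at 97 and 29 positions, was not left out.

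Fisher's exact test on the tags of each cluster, with Benjamini-Hochberg adjustment over all 6602 clusters, compares these libraries and not the conditions. At an adjusted p under 0.05 and at least a 2-fold change, 0.151% of all clusters were called higher and 20.7% lower in Emerald-high cells. This background depends on the setting: of 10 clusters called higher and 1368 lower in all, 14 and 3 were left when scaled to dense positions, and 1 and 29 with tags divided by 2.02, the overdispersion of MspI tags over all clusters. Among the 108 rarely cut clusters, 9 were called higher (8.33%) and 1 lower (0.926%). Of the 10 clusters called higher in all, 9 were thus rarely cut, 1 was partly cut and 0 were highly cut. By adjusted p alone, 0.182% of all clusters were higher and 37.3% lower, and 10 and 1 of the members. At an unadjusted p under 0.05, 16 members were higher and 1 lower, and 0 highly cut clusters were higher. With tags divided by the overdispersion, 1 member remained called higher and 0 lower.

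The call that remained was the largest member, on chromosome 12 at 5061570 to 5066490, with 104 dense positions over 4921 bp and 65 spacings of 31 bp. It held 170.2 and 62.8 HpaII tags beside 2892 and 2979 MspI tags. The log2 difference in HpaII/MspI was 2.23 (adjusted p = 2.6e-25, Fisher's exact test). Its neighbour at 5057129 to 5058814, with 30 positions and again a commonest spacing of 31 bp, held 44.2 and 17.7 HpaII tags beside 733.4 and 705.7 MspI tags, a difference of 1.98 (adjusted p = 5.4e-05, Fisher's exact test). In both, MspI tags were nearly equal between fractions and HpaII tags were not. Of their tags, 73.6% and 63.4% lay at positions with shared tags, and with whole tags alone the differences were 2.65 and 1.82.

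A cluster on chromosome 2 at 6416243 to 6417073, with 18 positions mostly 40 bp apart, held 29.5 and 15.5 HpaII tags beside 427.5 and 512 MspI tags, 86.3% of all these at positions with shared tags. Its difference of 1.91 fell to 0.74, no longer called, with whole tags alone. On chromosome 9 at 121877694 to 121878734, 26 positions again mostly 40 bp apart held 27 and 3 HpaII tags beside 89 and 44 MspI tags. The difference was 2.57 (adjusted p = 0.0029, Fisher's exact test), and its MspI libraries themselves differed in the same direction. On chromosome 10 at 8420645 to 8421123, 11 positions held 18 and 6 HpaII tags beside 51 and 46 MspI tags, a difference of 2.06. All of these clusters had regular spacing.

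The remaining clusters called higher had few HpaII tags. On chromosome 16 at 57264552 to 57264842, where 16 spacings were 6 bp, 5 and 1 HpaII tags stood beside 21 and 33 MspI tags, a difference of 2.97. On chromosome 6 at 4706210 to 4706288, 9.67 and 3 HpaII tags stood beside 30.3 and 48 MspI tags (2.82, with 39.6% shared). On chromosome 5 at 114245488 to 114245670 the HpaII tags were 14 and 7 and the MspI tags 30 and 50 (2.39). In these clusters MspI tags were fewer in Emerald-high cells, which adds to the difference. On chromosome 8 at 125951609 to 125952090 there were 16 and 8 HpaII tags beside 244 and 209 MspI tags (1.46, adjusted p = 0.049, Fisher's exact test); this cluster was picked after its values were seen.

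The single member called lower lay on chromosome 17 at 88093595 to 88094264, with 22 positions and 18 spacings of 29 bp. It held 14 and 31 HpaII tags beside 529 and 294.5 MspI tags, a difference of -1.17 (adjusted p = 0.03, Fisher's exact test). With whole tags alone the value was -0.09, and 94.9% of its tags lay at positions with shared tags.

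**Figure D5:**
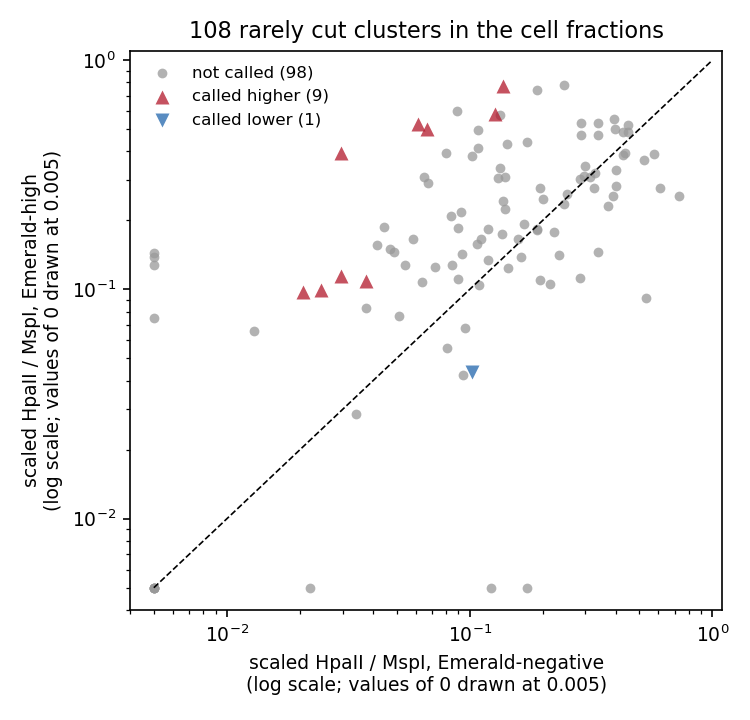
Scaled HpaII/MspI ratio of each of the 108 rarely cut clusters in Emerald-negative (x) and Emerald-high cells (y), on log scales, with values of 0 drawn at 0.005 and the line of equal ratios dashed. The 9 clusters called higher lie above the line, the 1 called lower lies below it, and of the 98 others 60 lie above it, 33 below it and 5 have no HpaII tag in either fraction.

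Other members with many MspI tags were not called. A cluster on chromosome 1 at 158381320 to 158381816, with 8 spacings of 31 bp, held 100.9 and 63.7 HpaII tags beside 312 and 215.8 MspI tags, a difference of 0.89 (adjusted p = 0.0063, Fisher's exact test) that stayed under 2-fold. On chromosome 11 at 113651582 to 113652256, with spacings of 56 bp, 37.8 and 41.8 HpaII tags stood beside 277.6 and 290.8 MspI tags (0.69, adjusted p = 0.10, Fisher's exact test). The cluster on chromosome 8 at 71371826 to 71372226, whose 10 spacings were all about 40 bp, held 32.2 and 31.3 HpaII tags beside 305.8 and 224.5 MspI tags (0.35). A cluster on chromosome 19 at 5861100 to 5861922 held 17.6 and 19.3 HpaII tags beside 231.3 and 262 MspI tags (0.81). All 4 differences are above 0, but none passed both limits of the call. Shared tags were frequent in these clusters, at 92.8%, 90.9%, 100% and 100%, in the order given.

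Other clusters with most positions or the largest span had few HpaII tags. The one with 48 positions, on chromosome 1 at 5061815 to 5063069 and mostly 21 bp apart, held 26 and 33.5 HpaII tags beside 236 and 172.5 MspI tags (-0.04, with 93.4% shared). On chromosome 13 at 42190022 to 42191094, with 45 positions mostly 17 bp apart, 3 and 4.2 HpaII tags stood beside 33 and 87 MspI tags (1.76, with 68.6% shared). On chromosome 3, a cluster at 58469537 to 58470419, mostly 6 bp apart, held 10.5 and 7.5 HpaII tags beside 51.5 and 55 MspI tags (1.29, with 30.1% shared), and one at 115609191 to 115610441 held 3 and 2 beside 10 and 18 (1.97, all shared). Among the longest clusters, that on chromosome 16 at 41575132 to 41576670, with a spacing pattern found elsewhere, held 8 and 3 HpaII tags beside 23 and 22 MspI tags (1.87). That on chromosome 19 at 31797127 to 31798536 held 4 and 3 beside 15 and 17 (1.25), and that on chromosome 14 at 79384870 to 79386303, mostly 45 bp apart, 1 and 0 beside 13 and 7 (0.95, all shared). These differences include the pseudocount of 1 tag, and none of these clusters was called.

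No HpaII tag was seen in 8 members (Emerald-high) and 9 members (Emerald-negative), 5 of them shared by both lists. The one with most MspI tags among these 5 lay on chromosome 4 at 62592238 to 62592944, with 14 and 25 MspI tags. The next lay on chromosome 15 at 12456827 to 12457001, with 20 and 8, and on chromosome 4 at 107241115, with 10 and 13. A count of 0 allows up to 3 tags per library, so these clusters are not shown to be uncut.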

How the data were processed

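HELP tags were counted at 1594137 CCGG positions in 4 libraries, with 5662614 to 9535691 tags per library. The authors deposited estimated counts, in 2 parts and their sum, not scaled to depth. Positions are in mm9, per the submitters' processing notes. The aligner, the meaning of each part and how multiply matching tags were shared were not given in the sources used here. Values were scaled to the totals, per the file headers. Log2 differences of single clusters used a pseudocount of 1 tag, and counts were rounded to whole tags for the exact test, whose null odds ratio came from the totals. The test equalled an independent implementation to within 1e-04 in 200 of 200 tables and was tested on simulated data. Of 100 randomly drawn clusters changed 2-fold, 33 were recovered at an adjusted p under 0.05, and of 100 changed 4-fold, 82. With all 108 rarely cut clusters raised, 3 (2.78%) were recovered at 2-fold and 25 (23.1%) at 4-fold. A member that was not called is thus not shown to be unchanged.

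Promoters were matched by the spacing of at least 4 CCGG, requiring a single match on the chromosome with no other CCGG in the window. Of the matches, 99.4% had the same offset between builds as a neighbouring match. No coordinate was converted between builds.

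The members, lists and tests were chosen with earlier results of these data known. Named clusters were the 8 with most MspI tags, the 5 with most positions, the 5 with the largest span, up to 6 called in each direction, and 3 beside each limit; the smaller called clusters and those near promoters were added after seeing values, as were the spacing measures and their limits. Alternatives covered scaling, minima, the ratio limit, the choice of members, shared tags, the gap between positions, the pseudocount, overdispersion and thinning. Tools were scipy 1.17.1, pandas 2.3.3, numpy 2.4.6 and matplotlib 3.10.9 under Python 3.11.15.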

Additional observations from a re-analysis of the deposited data

How the results depend on the processing

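The pooled HpaII/MspI log2 difference of the rarely cut clusters (0.70) stayed above 0 under all 22 alternatives run. It was 1.42 scaled to dense and 0.22 scaled to isolated positions, 0.91 at a ratio under 0.25 and 0.49 under 1. Scaled to isolated positions, members with a ratio under 0.1, which include the chromosome 12 pair, stood at 0.96 (0.701 to 1.21). With that scaling, members at 0.1 to 0.25 stood at 0.0025 (-0.215 to 0.220) and those at 0.25 to 0.5 at -0.084 (-0.280 to 0.112). Leaving out the pair was not run under that scaling, but a scaling moves all values together. With library totals, the other 106 members stood at 0.45 (0.320 to 0.585), beside 0.49 for autosomal isolated positions. A difference above 0 is therefore not shown for these 106 when scaled to isolated positions. Members chosen on the Emerald-high libraries gave 0.44 and those chosen on the Emerald-negative libraries 0.80. With members chosen on part 1 of the tags, part 2 gave 0.38 (0.227 to 0.535), and the reverse gave 0.73 (0.569 to 0.898). These intervals did not overlap, but they cover counting error only, and the members chosen were not the same (114 and 104 clusters). Whether the size of the difference varies between the parts was not tested. Added after seeing the data, the pooled difference was 0.50 without the cluster with most MspI tags, 0.45 without the pair on chromosome 12 and 0.44 without that chromosome. Also added then, it was 0.52 without clusters with over 20% shared tags and 0.53 as the median without a pseudocount. The difference of the highly cut clusters (-0.73) was -0.013 scaled to dense and -1.22 scaled to isolated positions. Clusters called higher (9) numbered 8 to 10 under the other alternatives, 1 with counts divided by the overdispersion of all clusters (2.02) or, added later, of the rarely cut ones (3.82), and 5 without clusters with over 20% shared tags. They were not always the same clusters. Of 10 called when scaled to dense positions, 7 were among the 9, and of 10 called with the Emerald-negative HpaII library thinned, 8 were. Scaled to dense positions, the clusters on chromosomes 16 and 8 were no longer called (adjusted p = 0.25 and 0.094, Fisher's exact test). The 1 call lower became 0 under both overdispersion factors, with whole tags, scaled to dense positions and without clusters with over 20% shared tags. The flank ratio within 2 kb (0.322, fractions together) was 0.303 within 1 kb, 0.349 with whole tags and 0.0772 scaled to dense positions, where highly cut clusters' flanks fell from 3.33 to 0.768. Regular spacing (41.7%) was at 26.0% without clusters with over 20% shared tags and 56.5% at the 33% limit. A matched promoter (0.962%) became 0% at a ratio under 0.25, on the Emerald-high choice and without clusters with over 20% shared tags. At least 50 MspI tags left 68 members. No paired analysis was possible because each group has 1 library. Depth limits single members: their median HpaII tags were 5 (Emerald-high) and 6 (Emerald-negative).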

Other observations

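Outside the autosomal rule, 5 of the 110 X clusters with at least 20 MspI tags had a ratio under 0.5, and 0 clusters on Y reached that number of tags. Emerald-high cells gave 34.7 HpaII and 191.5 MspI tags there and Emerald-negative cells 40.3 and 167.5, a log2 HpaII/MspI difference of 0.35 (-0.370 to 1.07), and 0 of them had regular spacing. Of the 2831 autosomal clusters under 20 MspI tags, 118 had a ratio under 0.5, and 52 of these had regular spacing. Regular spacing was found in 39.5% (37.7 to 41.3) of all 2831, close to the 41.7% of rarely cut clusters, and a spacing pattern found elsewhere in 33.6%, so most dense clusters with repeated spacing on these maps had too few tags to be placed in any class of cutting.

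Between the MspI libraries, tags scattered more in the rarely cut clusters than in all clusters tested. Their overdispersion relative to Poisson counts was 3.82 in the rarely cut clusters and 2.02 over all clusters with at least 20 MspI tags. The Poisson intervals given above do not include this scatter.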
